A study of Mus musculus with 4 samples.

Results

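The Polycomb repressive complex 1 (PRC1) subunits described here are 9 genes: the RING ligases Rnf2 and Ring1, their partners Bmi1 and Pcgf2, the chromobox genes Cbx2, Cbx7 and Cbx8, and the polyhomeotic genes Phc1 and Phc2. They were taken from all 21150 genes on the array by matching each probe's design transcript to a RefSeq gene symbol. The 9 genes had 11 of the 55681 probes, each printed as 1 spot: 2 for Bmi1, 2 for Pcgf2 and 1 for each of the other 7 genes. Of the 9 genes, 8 were measured (well above background by the scanner software's mark) on all 4 arrays, and Cbx7 on none.

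RNA came from a mouse model of myeloproliferative neoplasm, and every group carried the same genotype: the activated kinase allele JAK2V617F, with the PRC2 methyltransferase gene Ezh2 deleted from a floxed allele by Cre-ERT2. Bone marrow of JAK2V617F;Ezh2flox/flox;Cre-ERT2 donors was placed in lethally irradiated CD45.1+ wild-type recipients, and Ezh2 was deleted afterwards. The recipients then received JQ1, an inhibitor of BET bromodomain proteins, or the solvent DMSO for 2 weeks. The 4 groups, all labelled C57BL/6, had 1 array each: LSK under DMSO, LSK under JQ1, MEP under DMSO and MEP under JQ1. LSK marrow cells lack lineage markers and carry c-Kit and Sca-1, a set rich in stem cells and early progenitors. MEP cells give rise to megakaryocytes and red cells. Both were sorted directly after treatment. No group had normal JAK2 or intact Ezh2. The promoter driving Cre-ERT2, the age of the mice and the number of mice behind each array are not given in the sources used here. With 1 array per group there is no spread between animals, so no p-value is given.

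PRC1 holds developmental genes silent. Its core is a RING1 protein, RNF2 or RING1, paired with a PCGF protein such as BMI1 or PCGF2, and this pair attaches ubiquitin to histone H2A. In canonical PRC1 a CBX protein reads the methyl mark that PRC2 places on histone H3, and a PHC protein polymerises to join complexes and compact chromatin. In blood, BMI1 is known for sustaining stem cell self-renewal and for repressing the Ink4a/Arf locus, and CBX proteins exchange as cells leave the stem cell state.

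Promoters of 3 members that hold the same motif are shown, although the transcripts of Cbx8 and Pcgf2 differed in opposite directions between the arrays below. Capitals mark CACGTG, the E-box bound by MYC and related factors, and, in Pcgf2, TTATC, which is the GATA core GATAA on the other strand. Each sequence runs 5′ to 3′ on the gene's strand from 250 bases before to 50 bases after the transcript start, and is RefSeq sequence of build GRCm38.p6. The Bmi1 promoter lies at chr2:18676768-18677067 on the plus strand. The Cbx8 promoter lies at chr11:119040864-119041163 on the minus strand. The Pcgf2 promoter lies at chr11:97699599-97699898 on the minus strand.
Bmi1: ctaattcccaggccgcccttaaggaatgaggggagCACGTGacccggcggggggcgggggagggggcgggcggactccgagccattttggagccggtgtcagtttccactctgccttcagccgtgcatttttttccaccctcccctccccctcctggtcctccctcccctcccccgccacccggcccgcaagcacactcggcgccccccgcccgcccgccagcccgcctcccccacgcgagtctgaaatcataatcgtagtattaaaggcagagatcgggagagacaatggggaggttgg
Cbx8: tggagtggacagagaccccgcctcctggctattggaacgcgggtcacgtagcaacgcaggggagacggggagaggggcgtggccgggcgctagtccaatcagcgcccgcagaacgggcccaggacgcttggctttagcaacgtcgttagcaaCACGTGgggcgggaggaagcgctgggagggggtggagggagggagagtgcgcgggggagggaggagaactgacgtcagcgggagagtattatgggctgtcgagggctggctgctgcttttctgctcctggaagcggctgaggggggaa
Pcgf2: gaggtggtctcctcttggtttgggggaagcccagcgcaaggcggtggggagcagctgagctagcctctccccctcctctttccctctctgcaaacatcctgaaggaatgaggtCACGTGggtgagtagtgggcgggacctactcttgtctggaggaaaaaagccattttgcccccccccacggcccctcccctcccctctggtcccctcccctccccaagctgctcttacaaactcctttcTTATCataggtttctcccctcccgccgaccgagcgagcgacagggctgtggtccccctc

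The E-box began at -215 relative to the start in Bmi1, at -98 in Cbx8 and at -137 in Pcgf2. The promoter table held 8 of the 9 members with 10 promoters, 3 of them for Phc2. CACGTG, which reads the same on both strands, lay in 4 of these 10, the fourth being the first Phc2 promoter, where it began at -57. Of all 32851 promoters of the same length, 7.15% held it. GATAA, searched on both strands, lay in 1 of the 10 members' promoters and in 25.4% of all promoters, and the 2 motifs did not overlap in Pcgf2. CpG pairs numbered between 2 and 45 in the members' promoters, with a median of 23.5 against 7 for all promoters. A match describes the letters in this window and is not evidence that a factor binds there.

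The 75th percentile of probe signal ranged from 210 to 327 scanner units over the 4 arrays, and 45.2% to 53.2% of probes were well above background. Over 23013 probes the LSK arrays correlated with each other at r = 0.991, and DMSO MEP with the other 3 arrays at 0.973 to 0.976, as a description across probes. The defining marker Ly6a, which encodes Sca-1, read 4.58 log2 units lower in MEP than in LSK under DMSO and 4.13 lower under JQ1, and the erythroid markers' median was 3.03 and 4.06 higher. Of the LSK and stem cell markers, 8 of 10 measured were lower in MEP under DMSO (median -0.57) and 8 of 9 under JQ1 (median -1.06), while Slamf1 was 2.35 and 1.18 higher in MEP. Ezh2 transcript was well above background on all 4 arrays, at 1.72, 1.72, 1.81 and 1.93 log2 units above the median gene; the position of its probe against the floxed exons is not given, so this reading does not check the deletion. The DMSO MEP array stood apart in 2 lists that are not cell type markers. The 10 immediate early genes summed to 156 times the median gene there and to between 36.5 and 47.5 times on the other arrays, and 3 nuclear noncoding RNAs to 25.3 times against 2.39 to 3.59. It is the only array of its group, so no comparison that uses it can be made without it.

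Levels below are log2 units relative to the median of the 12013 genes measured on all 4 arrays. They are compared only between arrays for the same probe, since probes differ in brightness for reasons other than abundance. In sorted cells, a smaller share of cells with a transcript and less of it per cell cannot be told apart. The error given is the standard deviation (SD) of 1 probe, from how far the 2 brightest probes of a gene differ. It is larger for dim probes (Ring1, Cbx8, Pcgf2, Phc1) than for bright ones (Bmi1, Rnf2, Cbx2, Phc2), at 0.37 to 0.46 against 0.13 to 0.24 over the 4 comparisons, and does not cover mice, sorts or RNA preparation.

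Among the ligases, Rnf2, the main H2A ubiquitin ligase of PRC1, varied least of the 8 measured members. It read 0.25 in DMSO LSK, 0.34 in JQ1 LSK, 0.10 in DMSO MEP and 0.20 in JQ1 MEP. Ranked by level, neighbouring arrays lay within 1 probe SD of each other. The highest and lowest, JQ1 LSK and DMSO MEP, were 0.24 apart against an SD of 0.22, a range matched or exceeded by 89.1% of measured genes. Ring1, its paralogue, read -2.44, -2.32, -2.07 and -2.12 on the same arrays. Both MEP arrays were thus above both LSK arrays for Ring1, but the largest gap of 0.37 was within the SD of 0.46.

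Bmi1, the PCGF subunit best known from stem cells, read 1.93 in DMSO LSK, 2.15 in JQ1 LSK, 2.10 in DMSO MEP and 2.27 in JQ1 MEP. DMSO LSK was lowest and JQ1 MEP highest, 0.34 apart against an SD of 0.21, and no neighbours in the order differed beyond their SD. The second Bmi1 probe showed no such order, with 0.55, 0.51, 0.48 and 0.56. Pcgf2 (MEL18), the alternative partner, read -4.16, -4.19, -3.43 and -4.00. Only DMSO MEP stood apart, 0.57 above the next array against an SD of 0.45. The second Pcgf2 probe was well above background only on DMSO MEP, so it gives no difference.

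The chromobox genes included the widest ranges. Cbx2, whose protein compacts nucleosomes, read -0.72 in DMSO LSK, -0.50 in JQ1 LSK, -1.52 in DMSO MEP and -1.15 in JQ1 MEP. Both LSK arrays lay above both MEP arrays. Each gap in the order (0.23, 0.43 and 0.37) exceeded the bright-probe SD of its pair (0.13, 0.21 and 0.23). Against the dim-probe SDs of the same pairs (0.37, 0.41 and 0.45) only the middle gap did. Cbx8, whose gene is the next protein-coding gene after Cbx2 on chromosome 11 in the GRCm38.p6 order, read -3.04, -3.38, -4.01 and -3.54. DMSO LSK was highest and DMSO MEP lowest, 0.97 apart against an SD of 0.46, and of the neighbouring gaps only that between JQ1 MEP and DMSO MEP (0.47 against 0.45) exceeded its SD. Cbx7, a chromobox gene tied to stem cell self-renewal, was not well above background on any array. Its signals were 4.71, 8.73, 4.0 and 20.3 scanner units with spot errors between 23.7% and 100%, so the highest reading, in JQ1 MEP, has no order against the others.

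The polyhomeotic genes encode the polymerising subunits. Phc1 read -1.68 in DMSO LSK, -1.50 in JQ1 LSK, -2.09 in DMSO MEP and -1.95 in JQ1 MEP. Both LSK arrays were above both MEP arrays, as for Cbx2, with 0.59 between highest and lowest against an SD of 0.46, although no neighbouring gap exceeded its SD. Phc2 read 2.38, 2.36, 2.21 and 2.53. JQ1 MEP was highest and DMSO MEP lowest, 0.33 apart against an SD of 0.23. Over all 8 members the range across arrays had a median of 0.48, against 0.53 for all 12013 genes, and 4 of the 8 lay below the median gene's range.

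**Figure D1:**
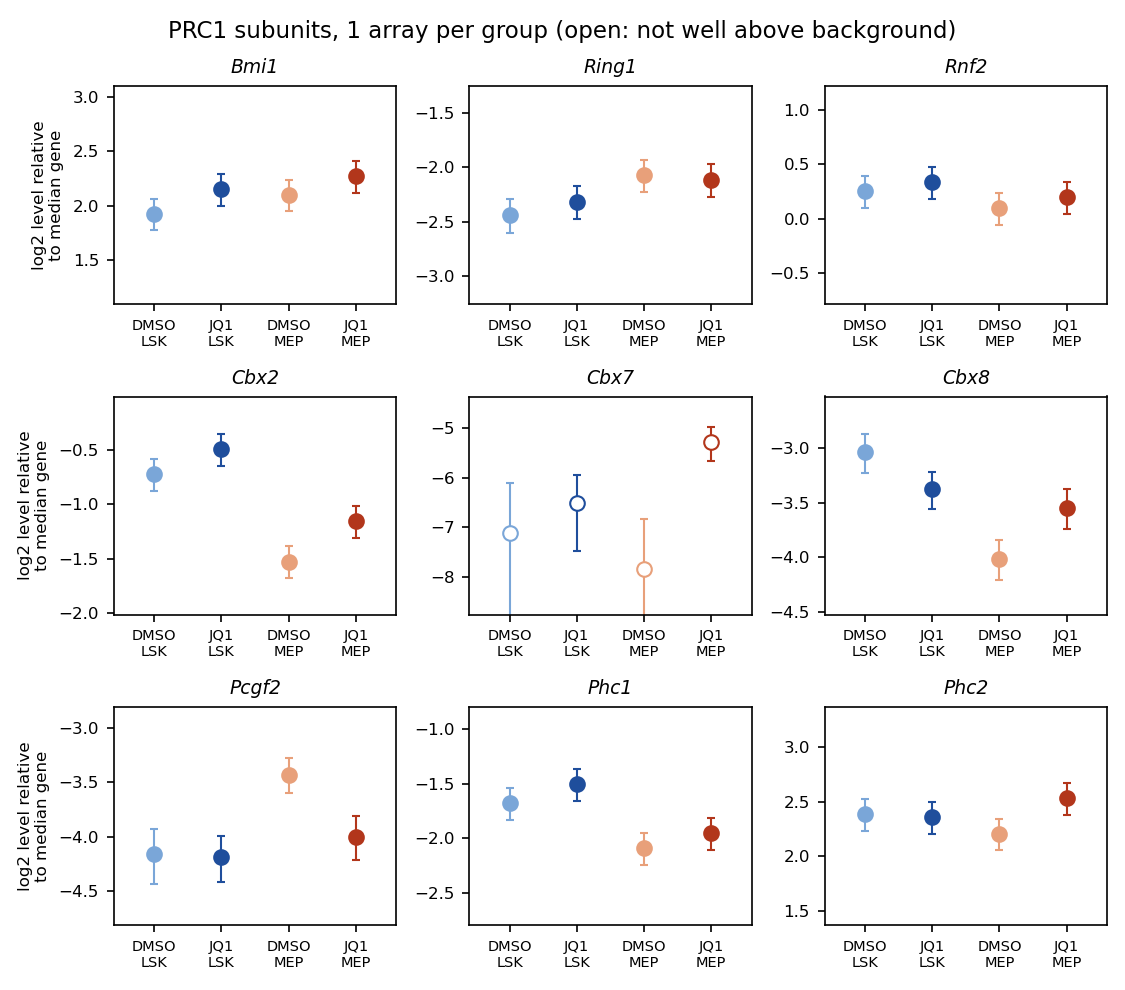
Level of each of the 9 PRC1 subunits on the 4 arrays (y axis, log2 units relative to the median gene; the span differs for Cbx7), 1 point per array, with bars for the scanner software's spot error and open points where the probe was not well above background. Cbx2 runs from -0.50 in JQ1 LSK to -1.52 in DMSO MEP, Rnf2 stays within 0.24, and the Cbx7 bars run off the panel on the DMSO arrays.

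The first comparison asked what 2 weeks of JQ1 did in LSK cells. No member reached a 2-fold difference, the threshold used for a call: 0 of 8, where 3.76% of 12325 measured genes did, 3.22% lower and 0.544% higher. Differences are centred on the median measured gene of each comparison, so they can depart by a few hundredths from subtracting the levels above. The members' median was 0.11, and 5 of 8 read above 0. Bmi1 at 0.23 and Cbx2 at 0.23, each 1.17-fold, were the 2 members beyond 1 probe SD (0.13), a distance that 49.4% of all genes exceeded. The second Bmi1 probe gave -0.03, so the 2 Bmi1 probes do not share a difference. Cbx8, on a dim probe, had the lowest value at -0.33 against an SD of 0.37. The remaining members, Phc1 (0.18), Ring1 (0.13), Rnf2 (0.09), Phc2 (-0.02) and Pcgf2 (-0.03), lay within their SD. The 8 B lineage markers summed to 50.6 times the median gene in DMSO LSK and 11.9 times in JQ1 LSK, with 7 of 8 well above background on both. Of 9 measured granulocytic and monocytic markers, 4 were at least 2-fold lower under JQ1 and 2 higher, with a median of -0.85 and sums of 615 and 354 times the median gene. The part of either list in these values was not tested.

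In MEP cells the JQ1 comparison again held no member past 2-fold, 0 of 8 where 6.75% of 12546 genes were, 5.77% lower and 0.980% higher. The members' median was 0.08, and 6 of 8 read above 0. Pcgf2 had the lowest value, -0.64 or 1.56-fold lower under JQ1, against a dim-probe SD of 0.45; with normexp background correction it read -0.27. Cbx8 had the highest, 0.40 or 1.32-fold higher, within its SD of 0.45. Cbx2 at 0.30 and Phc2 at 0.26 exceeded the bright-probe SD of 0.23. At least as far in the same direction lay 12.0% of all genes for Pcgf2, 12.0% for Cbx8, 19.1% for Cbx2 and 23.3% for Phc2, and 48.8% of all genes exceeded 1 probe SD. Bmi1 (0.10, with 0.01 on its second probe), Phc1 (0.07), Rnf2 (0.03) and Ring1 (-0.11) lay within their SD. With quantile normalization Cbx8 passed 2-fold, and with scaling to each array's median probe and no centring so did Cbx2, Cbx8 and Phc2; that scaling put the median of all genes at 0.75. All 10 immediate early genes were at least 2-fold lower in JQ1 MEP than in DMSO MEP, with a median of -1.75, and so were all 3 nuclear noncoding RNAs, with a median of -3.46. Of 7 measured B lineage markers, 5 were at least 2-fold lower under JQ1, with a median of -1.86 and sums of 20.1 and 6.98 times the median gene. Of 10 granulocytic and monocytic markers, 2 were at least 2-fold higher, with a median of 0.45 and sums of 448 and 664 times. The part of these lists in the members' values was not tested.

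Subtracting the JQ1 difference in LSK from that in MEP gave no member past 2-fold, 0 of 8 where 9.23% of 12013 genes were, 5.92% lower and 3.31% higher. Cbx8 was the highest at 0.72 and Pcgf2 the lowest at -0.62, each just beyond the dim-probe SD of 0.58. With normexp correction both lay inside it, at 0.42 and -0.12. Cbx8 passed 2-fold without centring, with scaling to the median probe and with quantile normalization. The median gene lay at 0.29 without centring and at 0.50 with scaling to the median probe. Phc2 at 0.27 just exceeded the bright-probe SD of 0.26. The difference was below 0.26 in size for Ring1 (-0.25), Bmi1 (-0.14), Phc1 (-0.12), Rnf2 (-0.07) and Cbx2 (0.06), and the members' median was -0.10. Cbx2 therefore read higher under JQ1 by similar amounts in both populations, 0.23 in LSK and 0.30 in MEP, which with 1 array per group could not be tested.

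**Figure D2:**
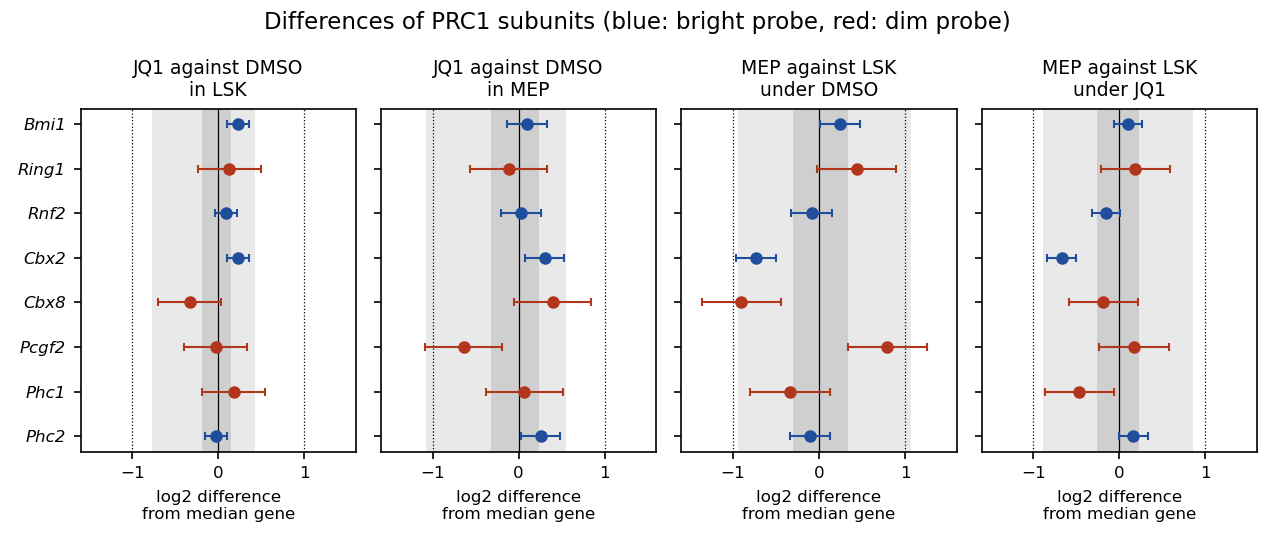
Centred log2 difference (x axis) of the 8 measured PRC1 subunits in the 4 comparisons, with bars of 1 probe SD matched to bright (blue) or dim (red) probes; dark and light shading hold the middle 50% and 90% of all measured genes, and dotted lines mark 2-fold. No subunit passes 2-fold, and Cbx2 sits at -0.73 and -0.67 in the panels of MEP against LSK.

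Between the populations, Cbx2 stood farthest from 0 among the members relative to its probe error, when set against the bright-probe SD. Under DMSO, Cbx2 was 1.66-fold lower in MEP, a centred difference of -0.73 or 3.11 times the probe SD of 0.24. Under JQ1 it was 1.59-fold lower, at -0.67 or 4.02 times the SD of 0.17. These were the members' only differences beyond 2 SD, which 25.7% and 27.7% of all genes exceeded, and 8.4% and 8.5% of genes were at least as low. Against the dim-probe SDs of 0.46 and 0.40, both Cbx2 values lay within 2 SD. Relative to the median gene, Cbx2 stayed between -0.87 and -0.59 under DMSO and between -0.74 and -0.61 under JQ1 across 9 alternatives. Those that only rescale whole arrays or omit the centring cannot change a value taken relative to the median gene. The mean over probes and the deposited table hardly can, since Cbx2 has 1 probe and that table holds the same intensities. This range therefore says little about stability for those alternatives. Scaled to spike-in probes without centring, Cbx2 read 0.18 under DMSO, with the median gene at 0.91. The DMSO and JQ1 comparisons use separate arrays.

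Under DMSO no member was past 2-fold between the populations, 0 of 8 where 10.0% of 12404 genes were, 4.32% lower and 5.68% higher. The members' median was -0.10. Cbx8 had the lowest value, -0.90 or 1.87-fold lower in MEP, within 2 SD of 0 on its dim probe (SD 0.46). Pcgf2 had the highest, 0.80 or 1.74-fold higher. At least as far lay 5.5% of genes for Cbx8 and 8.8% for Pcgf2. Ring1 (0.44) and Bmi1 (0.24, with 0.00 on its second probe) read higher, and Phc1 (-0.34), Phc2 (-0.11) and Rnf2 (-0.09) lower; of these only Bmi1 exceeded its SD of 0.24, by under 0.01. Cbx8 passed 2-fold without centring, with scaling to the median probe and with quantile normalization. It read -0.47 with normexp correction and 0.01 with spike-in scaling. The median gene lay at -0.22 without centring, at -0.32 with scaling to the median probe and at 0.91 with spike-in scaling. Those settings cannot change Cbx8 relative to the median gene. Pcgf2 read 0.18 with normexp correction, which also used the median spot signal and an added offset.

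Under JQ1 the count past 2-fold was again 0 of 8, where 7.95% of 12260 genes passed, 4.01% lower and 3.94% higher. The median was -0.03. After Cbx2, Phc1 was the other member beyond 1 SD, at -0.47 against 0.40, and 14.4% of genes were at least as low. Cbx8 (-0.19) and Pcgf2 (0.17), which had the widest differences under DMSO, were within their SD of 0.40. Ring1 (0.18), Phc2 (0.16), Bmi1 (0.10) and Rnf2 (-0.16) were within theirs. Cbx8 and Pcgf2 exceeded 1 SD only in comparisons that used DMSO MEP, the array with the high immediate early and nuclear noncoding RNA; their part was not tested. Of 9 granulocytic and monocytic markers measured under DMSO, 3 were at least 2-fold higher in MEP (Camp, S100a8 and S100a9). Another 3 were at least 2-fold lower (Csf1r, F13a1 and Ly6c1), and the median was -0.33. Under JQ1, 5 of 10 were at least 2-fold higher, Camp, S100a8 and S100a9 among them, and 0 lower, with a median of 1.01. Camp was higher by 3.84 under DMSO and 2.40 under JQ1, and S100a8 by 3.13 and 3.12. The mast cell markers were lower in MEP, with 4 markers summing to 92.0 and 74.3 times the median gene in LSK and 6.08 and 7.34 times in MEP, and the part of either was not tested.

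By Euclidean distance between array profiles, each centred on its own mean over the 4 arrays, the genes most like Cbx2 among 12013 were Aldh1l1 (0.04), Ect2 (0.06) and Atrnl1 (0.06). The nearest member was Phc1, in place 361 at 0.34. The genes most like Rnf2, the flattest member, were Naxd (0.01), Hook3 (0.02) and Tada1 (0.02), and the nearest member was Phc2 in place 2023 at 0.23. The distance is not scaled for range, so it sets flat and wide profiles apart. Distances of the named nearest genes lie below even the smallest probe SD of 0.13. Their order, and the places given, are therefore not resolved by these arrays.

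Of 19 other PRC1 genes, covering variant complexes and accessory subunits, 18 were measured in each comparison; Pcgf3 was well above background only on DMSO MEP. Under JQ1 none of the 18 passed 2-fold in either population, where 3.76% of all genes did in LSK and 6.75% in MEP. In LSK their median was 0.06, and the highest was Mga (0.37), a DNA-binding subunit of a variant complex. In MEP it was -0.05, between Phc3 (-0.94), the remaining polyhomeotic gene, and Bcorl1 (0.53), whose second probe disagreed at -0.75.

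Between populations, 1 of these 18 passed in each comparison, where 10.0% of all genes passed under DMSO and 7.95% under JQ1. Scml2, an accessory Polycomb gene, read -2.97 in DMSO LSK, -2.82 in JQ1 LSK, -1.25 in DMSO MEP and -2.02 in JQ1 MEP. It was 3.45-fold higher in MEP under DMSO (1.79, with 1.02 on its second probe) and 0.78 higher under JQ1, where its second probe read 0.15. Scml4, a relative, read -1.95, -2.03, -2.71 and -3.18. It was 2.24-fold lower in MEP under JQ1 (-1.17, or -0.73 with normexp background correction) and read -0.69 under DMSO, so these 2 relatives read in opposite directions. The list's median was 0.09 under DMSO and 0.02 under JQ1.

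The 6 genes listed as opposing, which encode deubiquitinases and ASXL proteins, were all measured. The name is that of the list, and opposition to PRC1 was not tested for any of them. None passed 2-fold under JQ1, where 3.76% of all genes did in LSK and 6.75% in MEP. In LSK all 6 read above 0, from Bap1 (0.09) to Usp16 (0.35), with a median of 0.20. In MEP they ran from Asxl2 (-0.38) to Usp7 (0.42, but -0.17 on its second probe), with a median of -0.02. Usp16, an H2A deubiquitinase, was the only one of 6 past 2-fold between populations, against those 10.0% and 7.95% of all genes. It read 0.74, 1.08, 1.69 and 1.58, 2.04-fold higher in MEP under DMSO (1.03) and 0.48 higher under JQ1. The DMSO value missed 2-fold under 4 of 9 alternatives, down to 0.71 with scaling to the median probe. That scaling put the median gene at -0.32. Asxl1 was lowest in both, at -0.45 and -0.44, and the medians were 0.13 and 0.03.

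All 11 PRC2 genes were measured, and 1 of them passed 2-fold, under JQ1 in MEP (6.75% of all genes) and in MEP against LSK under DMSO (10.0%). Phf1, which helps recruit PRC2, read -3.44 in DMSO LSK, -3.08 in JQ1 LSK, -2.07 in DMSO MEP and -3.53 in JQ1 MEP. DMSO MEP alone was high, which made Phf1 2.71-fold higher in MEP under DMSO (1.44) and 2.89-fold lower under JQ1 in MEP (-1.53). Both missed 2-fold with normexp correction, at 0.68 and -0.85, and the JQ1 value also with scaling to the median probe, at -0.78. Its value in JQ1 LSK against DMSO LSK was the list's highest at 0.36, and Phf19 was lowest at -0.08. Rbbp7, a histone-binding PRC2 subunit, was highest under JQ1 in MEP (0.35) and lowest in MEP under DMSO (-0.50). Under JQ1 the populations' difference ran from Mtf2 (-0.54) to Ezh2 (0.19). The PRC2 medians were 0.08 and -0.10 under JQ1 in LSK and MEP, and 0.02 and -0.21 between populations under DMSO and JQ1.

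**Figure D3:**
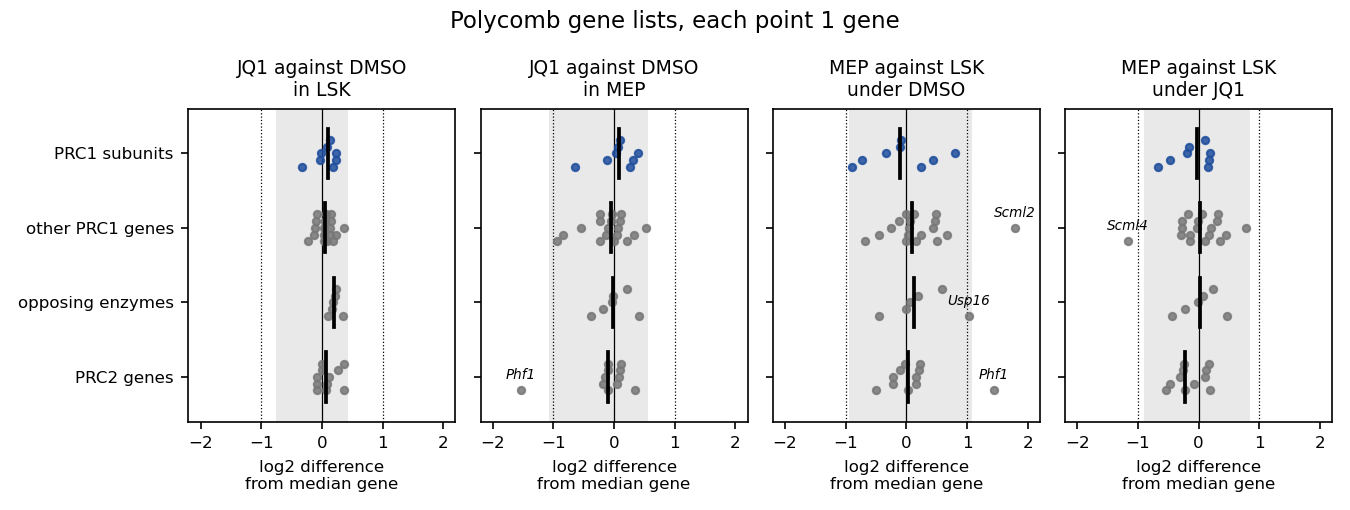
Centred log2 difference (x axis) of every measured gene in 4 Polycomb lists, 1 point per gene, with a black bar at each list's median and shading over the middle 90% of all measured genes. The medians stay between -0.21 and 0.20; Scml2, Scml4, Usp16 and Phf1 are the named points past the dotted 2-fold lines.

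The last question was whether known PRC1 targets differed on the same arrays. Cdkn2a, the Ink4a/Arf gene, which encodes cell cycle inhibitors, read -0.40 in DMSO LSK, -0.86 in JQ1 LSK, 0.42 in DMSO MEP and 1.73 in JQ1 MEP. Both MEP arrays were above both LSK arrays, and the JQ1 arrays were the extremes. Under JQ1, Cdkn2a was 2.35-fold higher in MEP (1.23, with 1.28 on its second probe) and -0.46 in LSK. In MEP against LSK it was 0.89 under DMSO and 5.95-fold higher under JQ1 (2.57). Scaled to spike-in probes, the JQ1 difference of Cdkn2a was 0.71 in MEP, where the median gene lay at -0.53. In LSK it was 0.17, where the median gene lay at 0.63, so Cdkn2a still read below the median gene there.

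Cdkn2b, the Ink4b gene beside it, was not well above background in either LSK array, and read -3.18 in DMSO MEP and -2.08 in JQ1 MEP. It was 2.04-fold higher under JQ1 in MEP (1.03), a value that missed 2-fold under 5 of 9 alternatives. The lowest was 0.50 with spike-in scaling, where the median gene lay at -0.53. In MEP against LSK it was at least 4.25-fold higher under DMSO and at least 15.6-fold higher under JQ1 by that array's floor. These folds set each MEP array against the lowest signal marked well above background on the LSK array. The mark has no single cutoff, since Pcgf3 missed it at readings above that signal, so these bounds are only as firm as that mark. Beside these, Bmi1, a subunit known to repress the Ink4a/Arf locus, differed by 0.24 or less in every comparison. Other members differed more: in MEP against LSK under DMSO, Cbx8 read -0.90, Cbx2 -0.73 and Pcgf2 0.80. Under JQ1 in MEP, Pcgf2 read -0.64 and Cbx8 0.40, and Cbx7 had no value. The part of any member in the Cdkn2a and Cdkn2b values was not tested. No value here shows PRC1 occupancy or H2A ubiquitin at Cdkn2a or Cdkn2b.

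**Figure D4:**
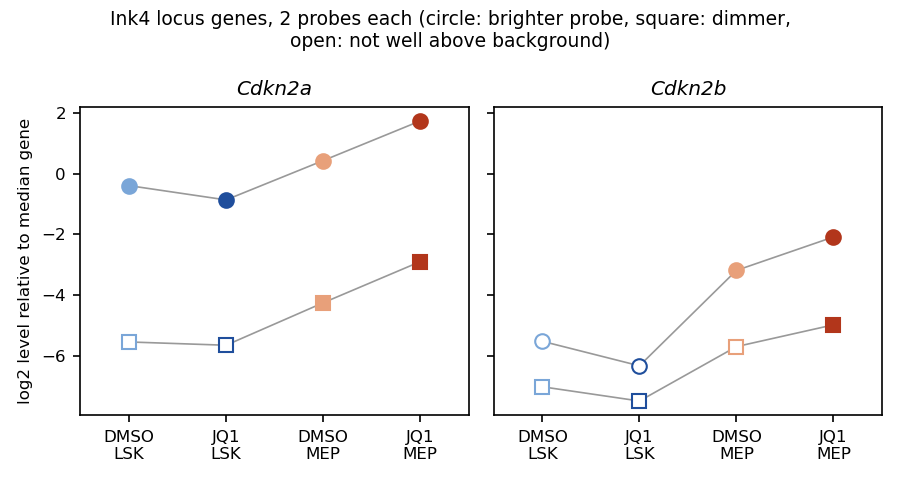
Level of Cdkn2a and Cdkn2b (y axis, log2 units relative to the median gene) on the 4 arrays, with circles for the brighter and squares for the dimmer of 2 probes and open symbols where the probe was not well above background; lines join readings of 1 probe. Both Cdkn2a probes are highest in JQ1 MEP, at 1.73 and -2.89.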

How the data were processed

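The 4 samples were each hybridised to 1 one-colour Agilent array, all on 1 slide. Per the labels, 20 ng of total RNA was amplified and labelled with Cy3 beside a spike-in mix. Per the file headers, Feature Extraction 10.7.1.1 (protocol GE1_107_Sep09, probe positions on mm9) subtracted background and gave each spot's processed intensity, its median and background intensity and its yes-or-no marks (other columns); nothing in the sources used here says that the authors normalized these intensities between arrays. The authors' deposited value table is a ratio: each processed intensity over 1 number per array close to its 75th percentile, 100% within 1% of that for bright probes.

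Spots marked as outliers were left out, log2 processed intensity was set relative to each array's 75th percentile, and each gene took its brightest probe over the arrays. Of 55681 probes, 28020 (50.3%) carried a transcript that RefSeq named. A gene counted as measured where the scanner software marked it well above background on every array compared, and as called from 2-fold. Differences were centred on the median measured gene. The error is the SD of the gap between the differences of a gene's 2 brightest measured probes, divided by the square root of 2, for genes below and above the 75th percentile. That choice of error was made after seeing the data. The number of arrays limits the precision. The code was tested on simulated data, where it recovered 100% of 200 changed genes in JQ1 against DMSO in LSK. The planted changes were well past 2-fold and the simulated noise was below the dim-probe SD. The test therefore checks the code and does not measure sensitivity near 2-fold.

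The 9 alternatives cover scaling, normalization, background, probe choice and filter. The normexp correction (limma 3.58.1, offset 50) used the median signal, since the files hold no mean signal. The members and all lists were chosen with earlier results of these data known. The text names all members, and of each other list the genes past 2-fold and the highest and lowest in each comparison, except for an item not reported here. Python 3.11.15, pandas 2.3.3 and R 4.3.3 were used.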

Additional observations from a re-analysis of the deposited data

Results flagged for a closer look

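In 3 of the 44 measured Polycomb-related genes, the JQ1 difference lay beyond 1 probe SD on opposite sides of 0 in the 2 populations. That is 6.82% of them, where the same held for 10.1% of all 12013 genes. Cdkn2a read -0.46 in LSK and 1.23 in MEP, 1.68 apart. Asxl2, an ASXL partner of the deubiquitinase BAP1, read 0.22 in LSK and -0.38 in MEP, a gap of -0.61; its second probe gave -0.08 in LSK. Pcgf6, the PCGF subunit of a variant PRC1, read 0.14 in LSK and -0.24 in MEP, a gap of -0.39. With 1 array per group these differences were not tested.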

How the results depend on the processing

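The 8 members' differences were recomputed under 9 alternatives, 360 values in all: 283 moved by less than 1 probe SD, 77 by more, and 56 changed sign. Centring on brighter genes moved none of 40 values by more than 1 SD, normexp correction 1 and quantile normalization 4. Neither the mean over probes nor the deposited table moved any, but most members have 1 probe and that table holds the same intensities, so these say little about stability. Scaling to the median of all probes moved 24 of 40 and to 8 spike-in probes 36 of 40, and without centring these carry the shift of all genes: 0.26, 0.75, -0.32 and 0.19 with median scaling and 0.63, -0.53, 0.91 and -0.24 with spike-in scaling, for JQ1 in LSK, JQ1 in MEP, and MEP against LSK under DMSO and JQ1. The members' median became 0.37 (median scaling) and 0.74 (spike-in) for JQ1 in LSK, 0.84 and -0.44 for JQ1 in MEP, 0.81 (spike-in) between populations under DMSO, and 0.41 and -1.25 for the gap between the JQ1 differences. The count past 2-fold, 0 in the report, became 3 with median scaling, 1 (Pcgf2) with spike-in scaling, 1 (Cbx8) with quantile normalization and 1 (Cbx7) without the background filter for JQ1 in MEP. Between populations under DMSO it became 1 without centring, 2 (Cbx2, Cbx8) with median scaling, 3 (Bmi1, Pcgf2, Ring1) with spike-in scaling and 1 with quantile normalization. Between populations under JQ1 it became 1 (Cbx7) without the filter. For the gap between JQ1 differences it became 1 (Cbx8) without centring, with median scaling and with quantile normalization, 6 with spike-in scaling and 1 (Cbx7) without the filter. It stayed 0 for JQ1 in LSK. Where Cbx7 enters, the value compares readings at background (2.41 for JQ1 in MEP). Apart from these shifts, the cause of each change was not tested. No paired analysis was possible because each group has 1 array and the groups share only replicate number 1.

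Signal over background limits Cbx8 and Pcgf2, whose spot errors reached 12.9% and 17.3%, and leaves Cbx7 without a value.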
